A study of Homo sapiens with 5 samples.

Results

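Axon guidance ligands and receptors were followed through ribosome footprints of HAP1 cells. The genes were taken from the count table by symbol: the semaphorins of classes 3 to 7, the plexins and neuropilins, the ephrins and EPH receptors, the slits and ROBO receptors, the netrins and their UNC5 receptors, the adhesion proteins CHL1 and L1CAM, and reelin (RELN). This gave 63 of the 14042 symbols of the table, each with a single row: 18 semaphorins, 13 EPH receptors, 8 ephrins, 8 plexins and neuropilins, 7 netrins and UNC5 receptors, 6 slits and ROBOs, and 3 genes of the L1 family and reelin. DCC, NRP1 and ROBO4, which the same rule would take, are not in this set. Nor are PLXNA4, PLXNB2, EPHB6, SEMA3C and SEMA4D, so counts by family cover only the members found. The libraries form 2 groups, METTL18 knockout (n = 3) and wild type (n = 2), with no other treatment or allele named in the labels. HAP1 is an established near-haploid human line that descends from a chronic myeloid leukaemia line and grows attached to the dish. METTL18 is a methyltransferase whose substrate is a histidine in the ribosomal protein RPL3. Whether the knockout is 1 clone, and whether libraries of a group come from separate cultures, is not given in the labels, so the p-values below rest on the scatter among these libraries alone, which may be technical.

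Guidance cues were named for steering growing axons, and most are used in other tissues as well. Slits are secreted proteins read by ROBO receptors, netrins are secreted proteins read by DCC and UNC5 receptors, and semaphorins are secreted or membrane-bound cues read by plexins, some of them with a neuropilin as co-receptor. Ephrins are held on the cell surface and are read by EPH receptor tyrosine kinases on touching cells, with signals running into both cells. Reelin is a large secreted glycoprotein of the developing cortex, and L1CAM and CHL1 are cell adhesion molecules of the immunoglobulin superfamily.

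The labels' protocol describes ribosome-protected fragments, whereas their molecule field says polyA RNA. The values are called footprints here after the protocol, and the files do not settle which label holds. A footprint is the stretch of mRNA that a ribosome shields from nuclease, so a gene's count depends both on how much mRNA there is and on how densely it is read, and these were not separated here. In a bulk culture, fewer cells that express a gene and less expression per cell cannot be told apart either. The knockout libraries held 16339574 to 17629199 counts and the wild-type libraries 4887380 and 5302160, so the knockout was sequenced 3.33-fold deeper on average. METTL18 itself had 33, 32 and 34 counts in the knockout libraries, against 33 and 32 in the shallower wild-type libraries (2.10 ± 0.117 against 5.70 ± 0.21 CPM, the count scaled to library size after TMM normalization). Its log2 fold change was -1.44, with an SE of 0.247 (adjusted p = 2.00e-06, edgeR). Of 12 haematopoietic markers 6 had a row, and they summed to 62.1 to 70.9 CPM in the knockout libraries, against 34.8 and 35.9 CPM in the wild type, with CD33 at 0 in all libraries and CD34 at 0 in the knockout libraries and at 2 counts in each wild-type library. Of the 3 tested, GATA2 rose (56.8 against 15.5 CPM), and KIT (7.81 against 11.1 CPM) and TAL1 (1.92 against 8.34 CPM) fell. All 16 neuronal and neural progenitor markers had a row, and they summed to 656 to 682 CPM in the knockout libraries, against 122.5 and 132 CPM in the wild type. TUBB3 (361 against 30.8 CPM) and NES (299.8 against 75.7 CPM) carried this sum. Of the 9 neural markers tested, TUBB3, NES and GAP43 rose, MAP2, NCAM1, ELAVL3, PAX6 and RBFOX3 fell, and SOX1 did not pass. These marker changes went both ways between the same groups as the guidance genes are compared in, and their part in the results was not tested.

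Most of the guidance genes had fewer footprints in the knockout. Of 63 genes, 55 passed the low-count filter, and of these 40 fell, 5 rose and 10 did not pass (adjusted p under 0.05 in edgeR's quasi-likelihood test, with p-values adjusted by Benjamini-Hochberg over all rows). Among all 11335 rows tested, 74.4% passed, 36.6% as lower and 37.8% as higher, so most of the table differed between the groups, in about equal numbers each way. With the knockout counts thinned to the wild-type depth, 33 guidance genes fell and 6 rose. Their median log2 fold change (knockout over wild type) was -1.14, with values from -9.66 to 2.09, beside 0.02 for all rows. The libraries of the groups did not overlap for 44 of the 55 genes, beside 83.5% of all rows. Of these, 38 were lower in every knockout library and 6 higher, beside 41.0% and 42.5% of all rows. Those at least 4-fold lower numbered 17, beside 5.21% of all rows, and 1 gene, SEMA6A, was at least 4-fold higher, beside 4.43%.

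The filter itself bears on these counts. A row passed when at least 2 libraries reached 0.612 CPM, and 10 guidance genes reached it in the wild type alone: CHL1, RELN, PLXNA2, PLXNB3, SEMA5A, NTN1, EPHA8, EPHA10, UNC5A and UNC5C. These 10 had to differ in order to be tested, and all 10 are among the 17 that were at least 4-fold lower. Of the 45 that reached it in both groups, 30 fell, 5 rose and 10 did not pass, with a median of -0.64, where 35.9% of all such rows fell and 37.8% rose, with a median of 0.02. At least 4-fold lower were 7 of these 45, beside 2.54% of all such rows. Among the 21 guidance genes with a mean CPM of at least 10, 16 fell and 2 rose, beside 39.4% and 39.8% of the rows above that level. The 8 genes that were not tested held few counts: EPHA1, SEMA6D and UNC5D had at most 1 in any library, and EPHA5, NTN3, SEMA3A, SEMA3G and SEMA4A at most 9.

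Coding length and abundance moved with the result and are given beside it. Over all rows tested, the median log2 fold change was 0.17 for coding sequences under 1 kb and -0.43 for those of 5 kb or more, of which 59.1% fell. Guidance genes have long coding sequences, and within each length class their median was lower than that of all rows. It was -2.31 against -0.21 for 3 to 5 kb, where 14 of 15 guidance genes fell, and -1.71 against -0.43 for 5 kb or more, where 6 of 7 fell. Of those, 4 and 3 genes had passed the filter through the wild type alone, and without them 10 of 11 genes of 3 to 5 kb (median -1.85) and 3 of 4 of 5 kb or more (median -1.23) fell. In the lowest abundance class (mean log2 CPM under 1), 27.2% of all rows were at least 4-fold lower, and 9 of the 17 guidance genes with such a drop were in that class, where 8 of the 11 guidance genes had passed through the wild type alone. What part length or abundance has in the drop of the guidance genes was not tested.

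**Figure D1:**
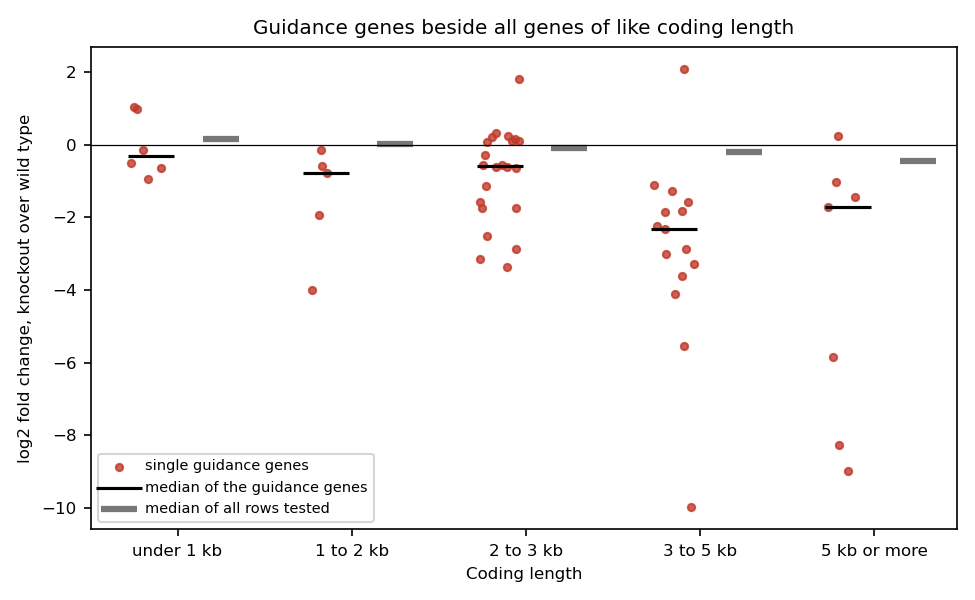
Log2 fold change (knockout over wild type, vertical axis) of the 55 tested guidance genes by class of coding length (horizontal axis, from under 1 kb to 5 kb or more). Red points are single genes, black bars the median of the guidance genes (-2.31 at 3 to 5 kb) and grey bars the median of all rows tested in the class (-0.21 at 3 to 5 kb); genes with at most 3 counts over the knockout libraries are drawn at their count ratio or bound.

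All 3 slits and all 3 ROBO receptors of the table fell, beside 36.6% of all rows tested. SLIT2, the best-known repellent of the family (transcript ENST00000504154, hg38 chromosome 4, 20253564 to 20620557, plus strand), had 16.04, 16.28 and 16.36 CPM in the knockout libraries, against 193 and 200.1 CPM in the wild type. The groups were far apart and the knockout libraries nearly equal, a 12.1-fold difference (log2 fold change -3.60, SE 0.0659, adjusted p = 9.02e-37, edgeR). SLIT3 (ENST00000519560, chromosome 5, 168661740 to 169301129, minus strand) had 4.55, 4.54 and 4.57 CPM in the knockout, against 84.7 and 72.2 CPM in the wild type (-4.11, SE 0.105, adjusted p = 1.57e-31, edgeR). SLIT1 had 1.39, 1.72 and 1.46 CPM in the knockout, against 13.1 and 11.3 CPM in the wild type (-2.999, SE 0.211, adjusted p = 2.31e-16, edgeR), and shares 216 coding bases with the readthrough gene ARHGAP19-SLIT1. The slits thus fell by at least 8.04-fold each, and their summed level was 22.3 ± 0.289 CPM (SD, n = 3) in the knockout against 287 ± 5.21 CPM (SD, n = 2) in the wild type.

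The folds of the receptors that read slits were smaller. ROBO1 (ENST00000495273, chromosome 3, 78598688 to 79019015, minus strand), by far the most abundant ROBO here, had 62.8, 54.0 and 60.1 CPM in the knockout, against 127 and 124 CPM in the wild type. That is a 2.13-fold difference with no overlap, as for 83.5% of all rows (log2 fold change -1.09, SE 0.0644, adjusted p = 6.56e-19, edgeR). ROBO2 (2.58 ± 0.227 against 9.18 ± 0.825 CPM) and ROBO3 (2.04 ± 0.284 against 6.06 ± 0.231 CPM) fell by 1.83 and 1.57 on the log2 scale. Together the ROBOs held 63.6 ± 4.27 CPM in the knockout against 141 ± 2.64 CPM in the wild type. Whether the slits fell by more than the ROBOs was not tested as a difference between genes.

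Of the netrins and UNC5 receptors, 5 were tested and passed as lower, beside 36.6% of all rows. NTN1, UNC5A and UNC5C, however, entered the test through the wild type alone. NTN4 and UNC5B reached the filter in both groups. NTN1 (ENST00000173229, chromosome 17, 9021542 to 9244000, plus strand), the secreted attractant and repellent netrin-1, had 6, 8 and 5 counts in the knockout libraries, or 0.396, 0.491 and 0.317 CPM, against 38 and 37 counts, or 6.40 and 6.77 CPM, in the wild type. The log2 fold change was -3.99 (SE 0.328, adjusted p = 2.61e-14, edgeR). NTN4, a netrin of basement membranes, had 1.06, 1.35 and 1.46 CPM in the knockout, against 4.21 and 5.67 CPM in the wild type (-1.92, SE 0.292, adjusted p = 1.88e-07, edgeR). Neither of the 2 tested netrins overlapped between the groups, which also held for 83.5% of all rows. UNC5B, a netrin receptor also known from blood vessels, had 5.21, 4.73 and 5.77 CPM in the knockout, against 16.5 and 18.5 CPM in the wild type (-1.74, SE 0.152, adjusted p = 1.78e-13, edgeR). It was the one UNC5 receptor with more than a trace of footprints. UNC5A had 1, 2 and 1 counts in the knockout, against 4 and 7 in the wild type (-3.35, SE 0.791, adjusted p = 2.32e-04, edgeR), and UNC5C 2, 4 and 3 against 8 and 5 counts (-2.51).

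Of 14 semaphorins tested, 6 fell (42.9%), 1 rose (7.14%) and 7 did not pass, beside 36.6% lower and 37.8% higher among all rows. The share that fell was thus near that of all rows. Of the 13 that reached the filter in both groups, 5 fell, 1 rose and 7 did not pass, with a median log2 fold change of -0.14. The gene that rose, SEMA6A, held 79.6% ± 0.521 of the summed semaphorin CPM in the knockout and 39.0% ± 1.87 in the wild type (SD). It encodes a transmembrane semaphorin. SEMA6A (ENST00000343348, chromosome 5, 116443616 to 116574934, minus strand), had 244, 233 and 233 CPM in the knockout, against 54.9 and 56.1 CPM in the wild type. Every knockout library was more than 4-fold above both wild-type libraries (log2 fold change 2.09, SE 0.0621, adjusted p = 2.78e-29, edgeR). With its 3 knockout libraries at 3695, 3793 and 3671 counts it was also the guidance gene measured with the most reads.

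The class 5 semaphorins, transmembrane proteins with thrombospondin repeats, went the other way. SEMA5A (ENST00000382496, chromosome 5, 9035026 to 9546075, minus strand) had 0 counts in all 3 knockout libraries, against 20 and 14 in the wild type. Set against a floor of 3 counts over the knockout group, 0.0636 CPM, it was at least 46.9-fold lower (adjusted p = 1.85e-11, edgeR). SEMA5B had 0.594, 1.11 and 0.698 CPM in the knockout, against 9.26 and 6.40 CPM in the wild type (log2 fold change -3.27, SE 0.287, adjusted p = 1.90e-13, edgeR). Neither gene of the class exceeded 1.11 CPM in a knockout library. Among the secreted class 3 semaphorins, SEMA3D had 1.45, 0.921 and 1.14 CPM in the knockout, against 9.76 and 11.0 CPM in the wild type (-3.14, SE 0.237, adjusted p = 2.08e-15, edgeR).

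The remaining semaphorins differed by less. SEMA3E (19.0 ± 1.12 against 23.1 ± 1.73 CPM, log2 fold change -0.28), SEMA4B (-0.56) and SEMA6B (-0.60) passed as lower, with adjusted p-values of 0.0209, 0.0232 and 0.0477 (edgeR). These calls are weak. That of SEMA3E was lost without wild type replicate 2 (-0.21) or without knockout replicate 2 (-0.24), that of SEMA4B without wild type replicate 1 (-0.19) or knockout replicate 2 (-0.36), and that of SEMA6B without any of 4 single libraries. SEMA3B, SEMA3F, SEMA4C, SEMA4F, SEMA4G, SEMA6C and SEMA7A did not pass, with log2 fold changes from -0.61 to 0.24. SEMA4C, the highest of these, had 13.1, 12.1 and 9.96 CPM in the knockout and 11.1 and 10.8 CPM in the wild type, which overlap. SEMA4G shares 738 coding bases with MRPL43 on the opposite strand, and no source used here says whether the counting used strand.

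Among the receptors for semaphorins, 6 of the 7 plexins of the set fell, beside 36.6% of all rows. PLXNA2 and PLXNB3 had passed the filter through the wild type alone. PLXNC1, the receptor of SEMA7A (ENST00000258526, chromosome 12, 94148723 to 94307675, plus strand), had 13.0, 10.6 and 9.89 CPM in the knockout, against 56.7 and 53.8 CPM in the wild type (log2 fold change -2.31, SE 0.102, adjusted p = 3.07e-23, edgeR). The 3 plexins of class A in the set fell by unequal amounts. PLXNA1 had 26.1, 20.9 and 20.4 CPM in the knockout, against 66.2 and 55.6 CPM in the wild type (-1.44, SE 0.0965, adjusted p = 7.35e-16, edgeR). PLXNA3 had 12.7, 11.9 and 11.7 CPM in the knockout, against 37.7 and 41.5 CPM in the wild type (-1.71, SE 0.103, adjusted p = 1.55e-18, edgeR). PLXNA2 (ENST00000367033, chromosome 1, 208022242 to 208244320, minus strand) had 0, 1 and 0 counts in the knockout, against 37 and 38 in the wild type, a ratio of wild type to knockout of 310 (95% counting interval 54.0 to 12416; adjusted p = 1.09e-16, edgeR). PLXNA1 and PLXNA3 were therefore still read in the knockout while PLXNA2 was all but absent, and in every guidance gene at least 98.4% of the 28-base windows of the coding sequence were unique among the coding sequences compared.

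PLXNB1 (4.77 ± 0.270 against 9.62 ± 0.675 CPM, log2 fold change -1.01) fell as well. PLXNB3 had 1 count in the knockout and 14 in the wild type, a ratio of 57.9 (95% counting interval 8.81 to 2449), and shares 942 coding bases with SRPK3 on the same strand. PLXND1, the endothelial and neural receptor of SEMA3E, stood at 24.4 ± 1.45 CPM in the knockout and 20.7 ± 1.22 CPM in the wild type and did not pass (0.23, SE 0.110, adjusted p = 0.0513, edgeR). It passed as higher without knockout replicate 2 (0.27, adjusted p = 0.0396, edgeR), without a low-count filter and with the knockout thinned to the wild-type depth, and its sign turned with total-count scaling (-0.04). NRP2, the co-receptor of SEMA3F, had 16.37, 16.71 and 15.98 CPM in the knockout and 13.1 and 16.1 CPM in the wild type, which overlap (0.17, adjusted p = 0.236, edgeR).

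**Figure D2:**
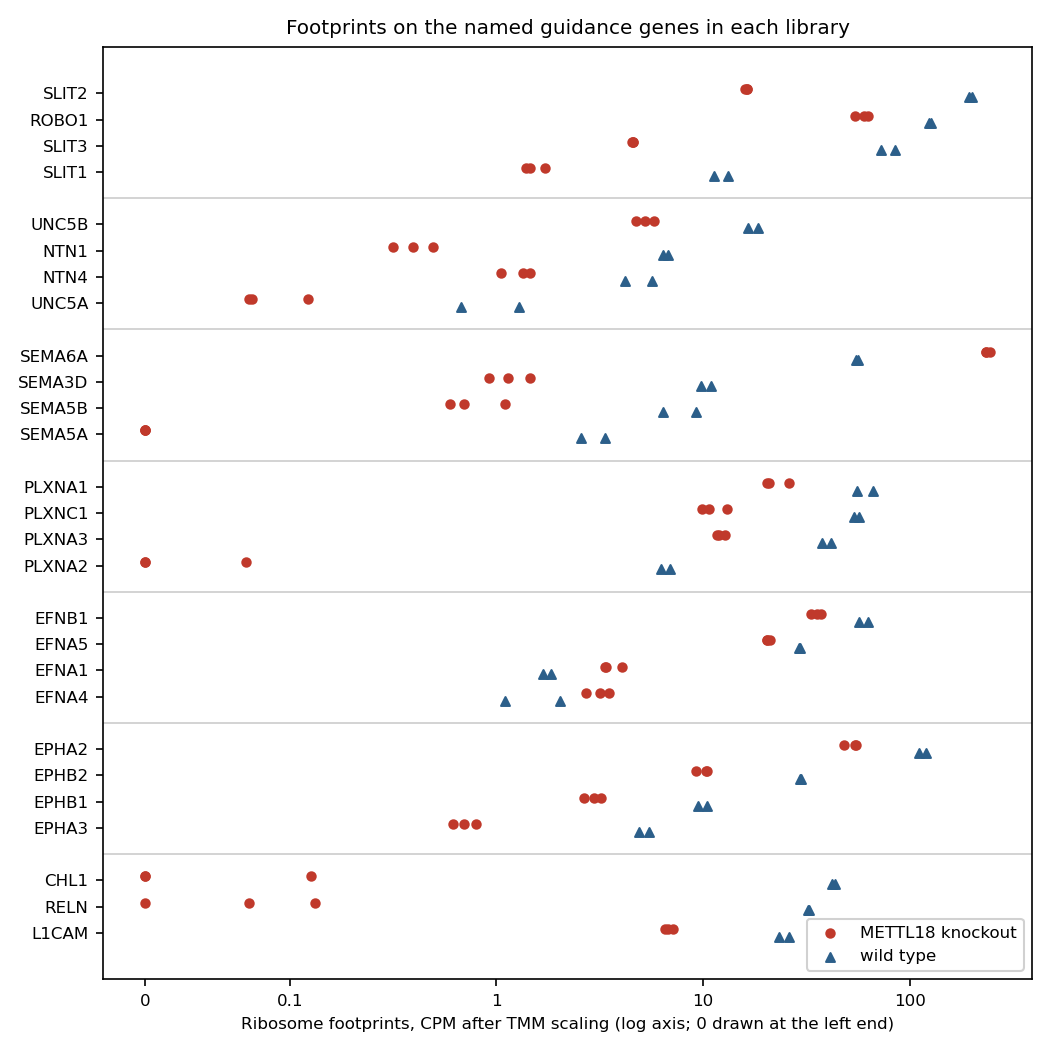
Ribosome footprints in CPM after TMM scaling (horizontal log axis, with 0 drawn at the left end) for the 27 guidance genes with the smallest adjusted p-values of their families, at most 4 per family. Red circles are the 3 METTL18 knockout libraries and blue triangles the 2 wild-type libraries; SEMA6A, EFNA1 and EFNA4 lie to the right of the wild type and the other 24 genes to the left, with SEMA5A at 0 in the knockout.

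Ephrins changed by less than 2.1-fold in either direction. EFNB1, the X-linked ephrin-B1 (ENST00000204961, chromosome X, 68828997 to 68842147, plus strand), had 37.3, 33.2 and 35.4 CPM in the knockout, against 63.0 and 57.1 CPM in the wild type (log2 fold change -0.77, SE 0.0798, adjusted p = 2.26e-11, edgeR). EFNA5 had 20.3, 20.4 and 21.0 CPM in the knockout, against 29.5 and 29.1 CPM in the wild type (-0.51, SE 0.1002, adjusted p = 1.92e-05, edgeR). Neither gene overlapped between the groups, which also held for 83.5% of all rows. EFNA1, known as a ligand of EPHA2, rose, with 51, 55 and 64 counts in the knockout, or 3.37, 3.38 and 4.06 CPM, against 10 and 10 counts, or 1.68 and 1.83 CPM, in the wild type (1.03, SE 0.315, adjusted p = 0.00341, edgeR). EFNA4 rose as well, with 3.169, 3.501 and 2.727 CPM in the knockout, against 2.02 and 1.10 CPM in the wild type (0.99, SE 0.342, adjusted p = 0.00945, edgeR). That call rests on few reads, and was lost without wild type replicate 2 (0.63), with DESeq2 and with total-count scaling.

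EFNA1, EFNA3 and EFNA4 lie side by side on chromosome 1 (155063731 to 155134857) and were not all called in the same direction. No difference between them was tested. EFNA3, between the other 2, was lower (3.71 ± 0.334 against 5.82 ± 1.09 CPM, log2 fold change -0.64). Its call was lost without wild type replicate 2 (-0.45) and with DESeq2. GENCODE has a readthrough gene, AL691442.1, that shares 586 coding bases with EFNA3 and 113 with EFNA4, so their counts may not be fully separate. EFNA2 (-0.94) and EFNB3 (-0.58) passed as lower. The EFNA2 call was lost without wild type replicate 1 (-0.46) and that of EFNB3 without knockout replicate 1 (-0.43), knockout replicate 2 (-0.52) or wild type replicate 2 (-0.44). EFNB2, the ligand of EPHB4 in blood vessels, had 8.97 ± 1.58 CPM in the knockout and 9.79 ± 0.913 CPM in the wild type and did not pass (-0.13, adjusted p = 0.505, edgeR).

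Of 11 EPH receptors tested, 9 fell and 2 rose, beside 36.6% and 37.8% of all rows. None overlapped between the groups, which also held for 83.5% of all rows. EPHA8 and EPHA10, which fell, had passed the filter through the wild type alone. EPHA2, the most abundant of them in both groups (ENST00000358432, chromosome 1, 16124337 to 16156087, minus strand), had 54.8, 48.3 and 54.0 CPM in the knockout, against 120.0 and 111 CPM in the wild type (log2 fold change -1.14, SE 0.0664, adjusted p = 4.40e-19, edgeR). EPHB2 had 10.3, 9.21 and 10.4 CPM in the knockout, against 29.3 and 29.6 CPM in the wild type (-1.56, SE 0.115, adjusted p = 9.45e-16, edgeR). EPHB1 had 2.97, 3.19 and 2.66 CPM in the knockout, against 9.43 and 10.4 CPM in the wild type (-1.75, SE 0.197, adjusted p = 2.04e-10, edgeR). All 4 EPHB receptors of the set fell, EPHB3 (-0.62) and EPHB4 (-0.56) by the least. EPHB4 shares 52 coding bases with SLC12A9 on the opposite strand. EPHA3, a receptor of ephrin-A5, had 0.792, 0.614 and 0.698 CPM in the knockout, against 4.88 and 5.49 CPM in the wild type (-2.87, SE 0.317, adjusted p = 1.15e-10, edgeR).

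EPHA4 and EPHA7, named here after their values were seen, were the EPH receptors that rose. EPHA4, which binds ephrins of both classes, had 44.8, 42.1 and 41.7 CPM in the knockout, against 34.0 and 33.8 CPM in the wild type (log2 fold change 0.34, SE 0.0866, adjusted p = 6.47e-04, edgeR). This call was lost when libraries were scaled by total counts (0.06), a scaling that moves the median of all rows from 0.02 to -0.25. EPHA7 had 67, 102 and 64 counts in the knockout, or 4.42, 6.26 and 4.06 CPM, against 12 and 4 counts, or 2.02 and 0.732 CPM, in the wild type (1.81, SE 0.348, adjusted p = 1.35e-05, edgeR). Without wild type replicate 1 its log2 fold change was 2.74. EPHA6 (-1.27), EPHA8 (-2.87) and EPHA10 (-2.23) fell as well, at low levels, EPHA8 with 12 counts over the knockout libraries and 22 over the wild type, and a log2 fold change of -2.07 without wild type replicate 1 and -3.49 without knockout replicate 2.

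Reelin and CHL1 were close to absent in the knockout. RELN (ENST00000343529, chromosome 7, 103471784 to 103989516, minus strand), with 10374 coding bases the longest coding sequence of the set, had 2, 0 and 1 counts in the knockout libraries, against 194 and 175 in the wild type. The ratio of wild type to knockout was 509 (95% counting interval 173 to 2479; adjusted p = 1.27e-28, edgeR). CHL1, the close homologue of L1 (ENST00000256509, chromosome 3, 196596 to 409417, plus strand), had 0, 0 and 2 counts in the knockout, against 249 and 239 in the wild type. Its ratio was 1009 (95% counting interval 278 to 8359; adjusted p = 2.02e-30, edgeR). L1CAM itself was still read, with 6.73, 7.19 and 6.53 CPM in the knockout, against 25.9 and 23.2 CPM in the wild type (log2 fold change -1.85, SE 0.130, adjusted p = 1.95e-16, edgeR). It shares 331 coding bases with U52112.1 on the same strand.

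Fitted log2 fold changes of genes this low depend on the small count added by the fit, so that of CHL1 moved to -11.84, against -9.66, without knockout replicate 3, which held both of its reads. That of RELN moved to -9.57, against -8.77, without knockout replicate 1, which held 2 of its 3 reads. That of PLXNA2 moved likewise, to -9.13 without knockout replicate 2, against -7.69. The median over the 55 genes was -1.14 also with such genes set at their ratio or bound. It could not have moved, since these genes lie far below it either way.

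**Figure D3:**
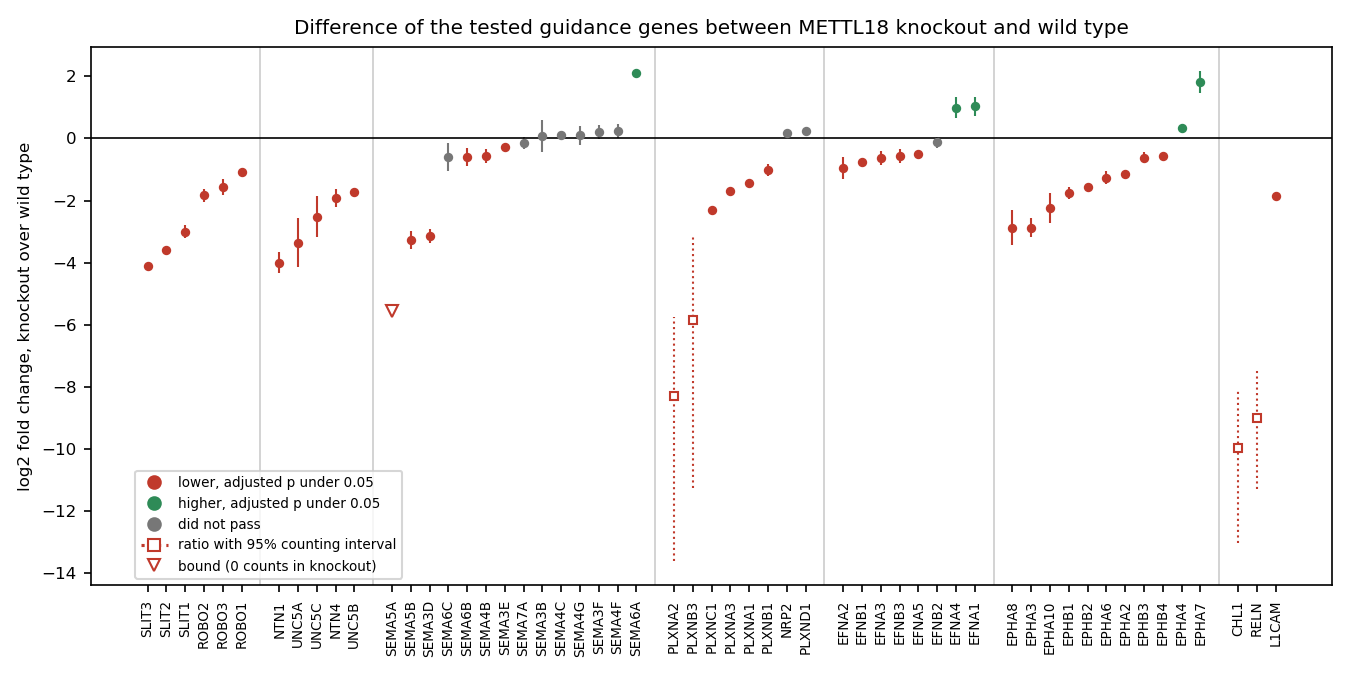
Log2 fold change (knockout over wild type, vertical axis) of all 55 tested guidance genes, grouped by family (horizontal axis; grey lines separate slits and ROBOs, netrins and UNC5, semaphorins, plexins with NRP2, ephrins, EPH receptors, and the L1 family with RELN). Filled points with bars are the estimate and its SE; open squares are count ratios with their 95% counting interval and the open triangle is the bound for SEMA5A, and SEMA6A at 2.09 is the highest point.

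The genes that were close to absent in the knockout have no common count of CpG dinucleotides at their RefSeq start sites. The 250 bases upstream of the start are shown for CHL1, PLXNA2, RELN and SEMA5A, which had at most 3 counts over the knockout libraries, and for PLXNA3, a class A plexin that fell but still had 12.1 CPM in the knockout (5′ to 3′ on the gene's strand, RefSeq on GRCh38.p14, with each CG in capitals).
CHL1, chr3:197639-197888, plus strand: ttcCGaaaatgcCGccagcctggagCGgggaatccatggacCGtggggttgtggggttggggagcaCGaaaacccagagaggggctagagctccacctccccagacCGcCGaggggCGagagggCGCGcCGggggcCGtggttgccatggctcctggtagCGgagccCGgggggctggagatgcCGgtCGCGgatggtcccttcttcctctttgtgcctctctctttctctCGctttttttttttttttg
PLXNA2, chr1:208244385-208244634, minus strand: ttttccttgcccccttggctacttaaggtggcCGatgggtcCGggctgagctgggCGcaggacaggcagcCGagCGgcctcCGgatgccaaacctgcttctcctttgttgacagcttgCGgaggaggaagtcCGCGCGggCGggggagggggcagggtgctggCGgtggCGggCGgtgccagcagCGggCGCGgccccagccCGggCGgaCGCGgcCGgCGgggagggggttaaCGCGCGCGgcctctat
RELN, chr7:103989659-103989908, minus strand: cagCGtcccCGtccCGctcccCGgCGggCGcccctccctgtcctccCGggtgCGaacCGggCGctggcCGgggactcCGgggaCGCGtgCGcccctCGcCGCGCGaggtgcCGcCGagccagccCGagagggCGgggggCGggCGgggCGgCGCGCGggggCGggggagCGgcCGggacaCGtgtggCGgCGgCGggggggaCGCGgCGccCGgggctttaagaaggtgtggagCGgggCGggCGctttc
SEMA5A, chr5:9546076-9546325, minus strand: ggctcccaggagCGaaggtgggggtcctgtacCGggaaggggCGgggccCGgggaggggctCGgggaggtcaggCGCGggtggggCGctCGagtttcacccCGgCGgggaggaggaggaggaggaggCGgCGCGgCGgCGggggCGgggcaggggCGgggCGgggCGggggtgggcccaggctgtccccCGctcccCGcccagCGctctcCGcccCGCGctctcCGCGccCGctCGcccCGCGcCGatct
PLXNA3, chrX:154458031-154458280, plus strand: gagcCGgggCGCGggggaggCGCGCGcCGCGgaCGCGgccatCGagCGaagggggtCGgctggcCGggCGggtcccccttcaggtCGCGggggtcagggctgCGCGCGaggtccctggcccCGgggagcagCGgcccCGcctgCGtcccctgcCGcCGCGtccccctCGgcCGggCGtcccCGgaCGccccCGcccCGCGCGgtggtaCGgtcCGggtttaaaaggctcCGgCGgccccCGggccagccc
The RefSeq start lies 1293 bases from the start of the counted transcript for CHL1 and at most 142 bases from it for the other 4.

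Counting the 2 letters CG, which read the same on both strands, gave 18 for CHL1, 27 for PLXNA2, 43 for RELN, 33 for SEMA5A and 41 for PLXNA3. Of 10742 genes of the table with such a sequence, 59.9% had at least as many as CHL1, 28.4% at least as many as PLXNA2, 12.9% at least as many as SEMA5A, 2.66% at least as many as PLXNA3 and 1.55% at least as many as RELN. With PLXNB3 (11), the 5 tested genes with at most 3 counts over the knockout had 11 to 43, median 27, and the 44 other tested guidance genes with a promoter sequence had 3 to 46, median 19.5. The ranges overlap almost wholly. Among the other genes, however, some RefSeq starts lie far from the start of the counted transcript (748983 bases for ROBO1, 113896 bases for PLXNC1). Those sequences are not at the start of what was counted. These counts describe the letters and carry no information on methylation in these cells.

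Neighbours of these genes on the chromosome moved both ways. Within 1 Mb of the start of RELN, 4 genes were tested, 2 rose and 1 fell, with log2 fold changes from -0.52 to 0.86. Around SEMA5A, 4 were tested, from -0.07 to 0.30, and 1 rose. Around PLXNA2, 1 of 2 rose and 1 fell (0.29 and -0.82), and the one neighbour of SLIT2 did not pass (-0.12). SLIT3 had 4 neighbours, of which DOCK2 fell by 3.70 on the log2 scale, 2 rose and 1 did not pass. PLXNB3 had 39 tested neighbours, of which 19 fell and 11 rose, with values from -5.28 to 7.11. Among those that fell were the guidance genes L1CAM (-1.85) and PLXNA3 (-1.71). CHL1 and SEMA3D had no tested neighbour in that window. Around SEMA6A, the guidance gene with the largest rise, 3 of 5 neighbours fell, and the values ran from -0.65 to 0.17.

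Per kilobase of coding sequence, the order of the genes changed at the top. In the knockout SEMA6A led with 76.6 CPM per kb, then came EFNB1 (34.0), EFNA5 (30.1), EPHA2 (17.9), EPHA4 (14.5) and ROBO1 (12.2). No 2 neighbours among these 6 overlapped between libraries. In the wild type the order was EFNB1 (57.8), SLIT2 (42.9), EFNA5 (42.8), EPHA2 (39.4), ROBO1 (26.1) and SEMA6A (17.96), where SLIT2 and EFNA5 overlapped. SLIT2 took rank 18 in the knockout at 3.54 CPM per kb, and CHL1, at rank 9 in the wild type, took rank 57.

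Summed over all 63 genes, the footprints came to 706 ± 22.8 CPM (SD, n = 3) in the knockout and 1262 ± 24.9 CPM (SD, n = 2) in the wild type. SEMA6A held 33.5% ± 0.511 of that sum in the knockout and 4.40% ± 0.158 in the wild type, and the slits 3.16% ± 0.142 and 22.8% ± 0.0364. Without SEMA6A the sums were 469 ± 17.4 CPM in the knockout and 1206 ± 25.8 CPM in the wild type. By family, the semaphorin sum was 2.09-fold higher in the knockout, but without SEMA6A it was lower there, 60.8 ± 3.15 CPM in the knockout against 87.1 ± 5.43 CPM in the wild type, and the sums of the other families were 1.45-fold (ephrins) to 14.4-fold (L1 family and reelin) lower. The sums of the plexins (74.9 ± 5.25 against 194 ± 5.24 CPM) and of the EPH receptors (135 ± 4.46 against 233 ± 6.52 CPM) were 2.59-fold and 1.72-fold lower.

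**Figure D4:**
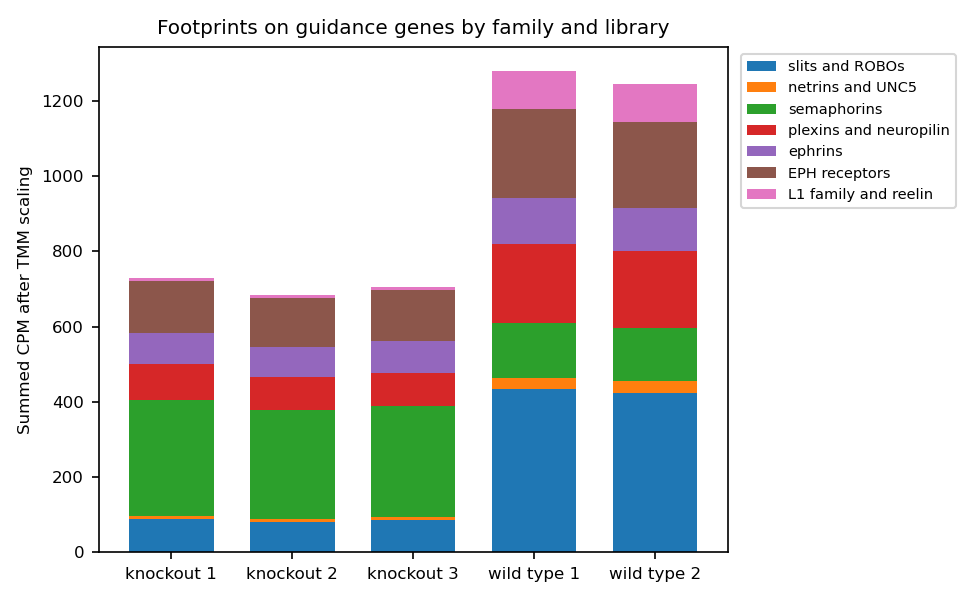
Summed CPM after TMM scaling of the guidance genes in each library (vertical axis from 0; 3 METTL18 knockout libraries, then 2 wild-type libraries), stacked by family. The totals are 684 to 729 CPM in the knockout and 1244 and 1280 CPM in the wild type, with the semaphorin block larger and the block of slits and ROBOs smaller in the knockout.

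Set side by side, some ligands and the receptors known to read them differed in direction or size, and others fell together. The pairs shown were chosen with earlier results of these data known, and no difference between genes was tested. SEMA6A rose (2.09) while PLXNA2, its receptor in mouse neurons, fell to 1 count, against 75 counts in the wild type. SEMA3E (-0.28) and PLXND1 (0.23) differed little between the groups, as did SEMA3F (0.21) and NRP2 (0.17). SEMA7A did not pass (-0.14) although its receptor PLXNC1 fell (-2.31). EFNA1 rose (1.03) and its receptor EPHA2 fell (-1.14), and EFNB2 did not pass (-0.13) while EPHB4 fell (-0.56). Other ephrins fell along with EPH receptors: EFNA5 (-0.51) with EPHA3 (-2.87), and EFNB1 (-0.77) with EPHB1 (-1.75) and EPHB2 (-1.56). In the slit and netrin systems ligand and receptor fell together: SLIT2 (-3.60) with ROBO1 (-1.09), and NTN1 (-3.99) with UNC5B (-1.74). SEMA5A and SEMA5B fell with PLXNA1 and PLXNA3, which read class 5 semaphorins in the mouse retina. Of the genes in these pairs, PLXNA2, NTN1 and SEMA5A reached the filter in the wild type alone. They therefore had to differ in order to be tested. Over all ligands tested, 17 of 28 fell, 3 rose and 8 did not pass, with a median of -0.59. Over all receptors 21 of 25 fell, 2 rose and 2 did not pass, with a median of -1.57. Of all rows tested, 36.6% fell and 37.8% rose. Without the genes that passed the filter through the wild type alone, 14 of 25 ligands (median -0.56) and 15 of 19 receptors (median -1.27) fell. The share among all rows that reached the filter in both groups was 35.9%.

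Other genes of guidance pathways, which are no ligand or receptor of the families above, were split between both directions. Of 106 kinases, adaptors, GTPase regulators and cytoskeletal effectors listed, 97 had a row and 93 were tested, of which 39 fell, 34 rose and 20 did not pass, with a median log2 fold change of -0.08. These shares are near those of all rows (36.6% lower, 37.8% higher). FYN, a Src-family kinase that acts below reelin, netrin and ephrin receptors, had 14.8 ± 1.33 CPM in the knockout and 57.3 ± 1.35 CPM in the wild type (-1.95, SE 0.0922, adjusted p = 3.65e-22, edgeR). PAK3, a neuronal p21-activated kinase, had 0.634 ± 0.182 CPM in the knockout and 16.04 ± 0.0731 CPM in the wild type (-4.63). The focal adhesion kinase PTK2 (-1.17) fell too, and the adaptor CRKL rose (1.00).

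TIAM1, an exchange factor for RAC1, had 28.3 ± 1.18 CPM in the knockout and 2.19 ± 0.00456 CPM in the wild type, a 12.9-fold rise (log2 fold change 3.69, SE 0.186, adjusted p = 3.66e-21, edgeR). ARHGEF28, an exchange factor for RHOA, had 0.233 ± 0.0384 CPM in the knockout and 14.0 ± 1.16 CPM in the wild type (-5.85, SE 0.285, adjusted p = 1.09e-21, edgeR). DOCK3 fell (-2.73) and RHOA itself rose (0.66). Of the cytoskeletal genes, the myosin light chain MYL6 (2.18) and ezrin (EZR, 1.15) rose, and MYO10, a myosin of filopodia (-1.16), and DPYSL4 of the collapsin response mediator family (-2.40) fell.

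Other cues, receptors and co-receptors moved both ways: of 60 listed, 46 had a row and 38 were tested, of which 21 fell, 8 rose and 9 did not pass, with a median of -0.27, beside 36.6% lower and 37.8% higher among all rows. Whether the list differs from all rows was not tested. The syndecan SDC2, a heparan sulphate carrier, had 184 ± 1.63 CPM in the knockout and 43.0 ± 2.03 CPM in the wild type (log2 fold change 2.09, SE 0.0665, adjusted p = 2.98e-28, edgeR), and the glypican GPC3 rose too (0.56). MET, the receptor of hepatocyte growth factor and a partner of plexins of class B (-1.29), and the receptor phosphatase PTPRD (-1.18) fell. In the reelin pathway, of 16 genes with a row 8 fell, 6 rose and 2 did not pass, against the background of 36.6% lower and 37.8% higher given above. VLDLR, a reelin receptor, had 12.4 ± 0.879 CPM in the knockout and 27.2 ± 3.70 CPM in the wild type (-1.13), LRP8, the other, had 20.2 ± 0.987 CPM in the knockout and 15.6 ± 2.43 CPM in the wild type (0.36, adjusted p = 0.00848, edgeR), and LRP1 had 121 ± 9.68 CPM in the knockout and 411 ± 17.2 CPM in the wild type (-1.77). VLDLR thus fell and LRP8 rose by a small amount, while reelin itself was all but lost. Scaling by total counts moves the median of all rows from 0.02 to -0.25, and the value of LRP8 under that scaling is not given here.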

How the data were processed

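Ribosome footprints of 5 HAP1 libraries were counted by the authors. Per the labels' protocols, cycloheximide lysates were treated with RNase I and the monosome fraction of a sucrose gradient gave the footprints. The deposited values are raw counts with no normalization, held in 14084 rows that each name a transcript and a symbol. Per the submitters' processing notes Bowtie and hg38 were used. Not given in the sources used here are the counting tool, the annotation release, the strand setting and the handling of multiple matches. With no matched RNA-seq used here, translational efficiency was not computed.

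Groups came from the labels. All rows entered a single edgeR 4.0.16 fit (R 4.3.3) (TMM factors of 0.927, 0.924 and 0.932 in the knockout and 1.12 and 1.12 in the wild type, filterByExpr with a minimum count of 10 and total of 15, robust quasi-likelihood test, group as sole term, adjusted p under 0.05). The same fit was run on simulated counts in which only a small part of the genes was changed. Most rows differ here, so that run does not give the error rate of the fit on these data. The SE is the log2 fold change over the root of F. CPM are after TMM scaling, and sums and per-kb levels use coding lengths of GENCODE 29, which held all 63 members. Counting intervals (95%, exact binomial) and the floor of 3 counts over a group cover counting error only. The 2 wild-type libraries differed by more than counting noise (chi-square per degree of freedom 1.14). Promoters came from RefSeq, with 54 members matched. The members, gene lists and pairs of ligand and receptor were chosen with earlier results of these data known. Genes given with full statistics by rule are, per family, up to 4 with the smallest adjusted p, and per pathway list up to 4, with VLDLR and LRP8 added as reelin receptors. Other members given with values, among them EPHA4, EPHA7 and PLXND1 with full statistics, were chosen after their values were seen. Alternatives used DESeq2 1.42.0, limma 3.58.1 (voom), other scalings and filters, a required fold of 1.5, a thinned knockout, summed rows of a symbol, a replicate block and leaving out each library.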

Additional observations from a re-analysis of the deposited data

How the results depend on the processing

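Of the 45 guidance genes that passed, 33 kept their call and direction under each of the 15 alternatives that tested them, and none of the 45 turned in direction. The 12 others lost the call under at least 1 alternative. A gene that fell below the filter of an alternative was not tested by it. UNC5A was not tested with any library left out or with the knockout thinned. PLXNB3 was not tested with the knockout thinned, without knockout replicate 2 or without either wild-type library. The number of genes called lower (40) was 33 to 38 with a single library left out, 35 with DESeq2 and 33 with the knockout thinned to the wild-type depth, and 16 with a mean CPM of at least 10, which tests fewer genes. The number called higher (5) was 4 to 6 with a library left out, 3 with total-count scaling, 2 with a mean CPM of at least 10 and 2 with a required fold of 1.5. Of the 27 genes named by rule, 26 passed with a knockout library left out and 15 with a mean CPM of at least 10, which tests fewer genes. They were chosen for the smallest adjusted p in these same libraries, so their passing again is no independent support. Of the pathway genes, 112 passed, 100 to 113 with a library left out and 53 with a required fold of 1.5. Total-count scaling gave 2982 higher and 5597 lower calls over all rows, against 4288 and 4143. Same-numbered libraries of the groups did not deviate together (correlations of 0.00853 and 0.0231), and with the replicate number as a block 39 genes passed as lower and 5 as higher, 27 of the named genes and 115 of the pathway genes passed, and the call of SEMA6B was lost. Where 1 wild-type library is left out, the other is assumed to vary like the knockout libraries. With few reads, as for UNC5A or PLXNB3, the fold is poorly known.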
